A study of Homo sapiens with 8 samples.

Results

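Oxidative phosphorylation (OXPHOS) is carried out by protein complexes of the inner mitochondrial membrane that contain subunits from 2 genomes, and the expression of genes named for these subunits was examined in HT29 cells with and without the MEK inhibitor selumetinib. The rows were chosen by gene symbol alone: NDUFA, NDUFB, NDUFC, NDUFS or NDUFV followed by a number, SDHA to SDHD, UQCR, COX4 to COX8, CYC1 and ATP5 for the nuclear genome, and MT-ND, MT-CO, MT-CYB and MT-ATP for the mitochondrial genome, without pseudogenes, antisense transcripts and assembly factors. The rule does not take a subunit with another form of name, such as NDUFAB1 of complex I. Of 38148 rows in the table, 104 met this rule, 91 of them nuclear and 13 mitochondrial. The nuclear rows comprised 36 of complex I, 4 of complex II, 10 of complex III, 19 of complex IV and 19 of complex V. A further 3 nuclear rows met the rule by name but encode no subunit: the divergent transcript NDUFA6-DT and the read-through genes NDUFC2-KCTD14 and ATP5MF-PTCD1, which overlap NDUFC2 and ATP5MF and share their reads. The 13 mitochondrial rows are the complete set of protein-coding genes of human mitochondrial DNA, with 7 subunits of complex I, 1 of complex III, 3 of complex IV and 2 of complex V. No mitochondrial ribosomal or transfer RNA has a row in the table.

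Complexes I and II feed electrons from NADH and succinate to coenzyme Q, complex III passes them to cytochrome c, and complex IV transfers them to oxygen. Complexes I, III and IV pump protons, and complex V, the ATP synthase, uses the resulting gradient to make ATP. Complex II is encoded entirely in the nucleus, whereas every other complex needs nuclear subunits made in the cytosol and imported, together with a small hydrophobic core translated inside the organelle from transcripts that are cut from long polycistronic precursors.

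HT29 cells derive from a human colorectal carcinoma with a BRAF mutation that activates the ERK1/2 pathway, and selumetinib inhibits MEK, the kinase upstream of ERK1/2. Cells were left untreated or exposed to 1 μM selumetinib for 24 h, fixed with glyoxal, stained for cyclin B1 (CCNB1), a protein of G2 and mitosis, and separated by that stain into a CCNB1-negative and a CCNB1-positive fraction, from which poly(A) RNA was sequenced. Both fractions were taken with and without the drug, which gave 4 groups, each with 2 libraries whose origin from separate cultures is not stated, so that p-values measure the spread between these libraries only.

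The titles and the growth characteristic of the deposited samples give both the treatment and the fraction the other way round from their descriptions. All groups here follow the descriptions, which match the names in the table. If the titles and the growth characteristic were right instead, every response below would change its sign. CCNB1 mRNA, the check on the sort, lay between 591 and 704 RPM (reads scaled to library size) in untreated CCNB1-positive libraries against 136 to 171 in untreated CCNB1-negative ones, and between 267 and 309 against 6.93 and 11.01 after selumetinib, so it was higher in the positive fraction under the descriptions and would be lower in it under the titles. For the treatment, DUSP6, SPRY4 and ETV4, which ERK1/2 signalling induces, were read after the other values had been seen. DUSP6 lay at 62.6 to 111.8 RPM in the libraries described as untreated and at 26.3 to 42.7 in those described as treated, SPRY4 at 28.5 to 48.4 and 12.97 to 24.2, and ETV4 at 70.5 to 77.8 and 8.03 to 26.4, without overlap for any of the 3. Reads on genes numbered 19114877 to 23916160 in untreated and 12696860 to 19976635 in selumetinib-treated libraries. MALAT1, a nuclear noncoding RNA, took 0.303% to 0.386% of reads in untreated and 2.01% to 4.42% in treated libraries. The 8 colorectal epithelial markers examined were all expressed, with a summed level of 9932 to 11017 RPM in untreated and 4580 to 8250 RPM in treated libraries, whereas 8 markers of other cell types together reached only 7.40 to 18.9 RPM. The part of these shifts in the results below was not tested. In bulk RNA, less RNA per cell and fewer cells that express a gene cannot be told apart.

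The nuclear and the mitochondrial subunits moved in opposite directions under selumetinib. Transcripts of nuclear subunits fell in CCNB1-negative cells and by less in CCNB1-positive cells, and transcripts of mitochondrial subunits rose in both, except that under quantile normalization 4 of the 13 mitochondrial genes turned negative in the negative and 5 in the positive fraction. The deposited values are log2 reads scaled to the largest library, and 96 OXPHOS rows, 83 nuclear and 13 mitochondrial, reached the mean of 1 RPM needed for testing with limma alongside 14219 genes in all. In CCNB1-negative cells, 78 of 83 nuclear rows were lower at an adjusted p under 0.05, where 35.8% of all genes tested were lower, and the median log2 change was -1.06 (2.09-fold), against 0.05 for all genes. In CCNB1-positive cells 58 of 83 were lower, where 27.3% of all genes were, with a median of -0.55 against 0.17 for all genes. Of the mitochondrial rows, 9 of 13 were higher in CCNB1-negative cells, where 38.2% of all genes were, with a median of 0.95. In CCNB1-positive cells 8 of 13 were higher, where 38.0% of all genes were, with a median of 0.97. The only nuclear row called higher was NDUFA6-DT, which reached the 1 RPM filter only through the treated libraries, and no mitochondrial row was lower. Both fractions called 57 nuclear rows lower, where 26.0% of all genes were lower in both, and 8 mitochondrial rows higher, where 33.3% were. Leaving out the 3 rows that encode no subunit left 80 nuclear rows, of which 76 were lower in the negative and 56 in the positive fraction.

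The same split was seen library by library. Relative to the mean of the 4 untreated libraries, the median nuclear subunit lay between -0.16 and 0.21 in the untreated libraries, at -0.83 and -1.11 in the treated CCNB1-negative and at -0.65 and -0.63 in the treated CCNB1-positive libraries. The median mitochondrial subunit lay between -0.42 and 0.45 in the untreated libraries, at 1.13 and 0.79 in the treated CCNB1-negative and at 0.98 and 0.78 in the treated CCNB1-positive libraries. In 78 of 83 nuclear rows all 4 treated libraries lay below all 4 untreated ones, an arrangement found in 31.4% of all genes tested, and in 10 of 13 mitochondrial rows all 4 lay above, as in 38.3% of all genes. The replicates of untreated cells spread more widely for mitochondrial than for nuclear transcripts. For the median mitochondrial subunit, replicate 1 was the higher of the pair in every group, treated and untreated.

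**Figure D1:**
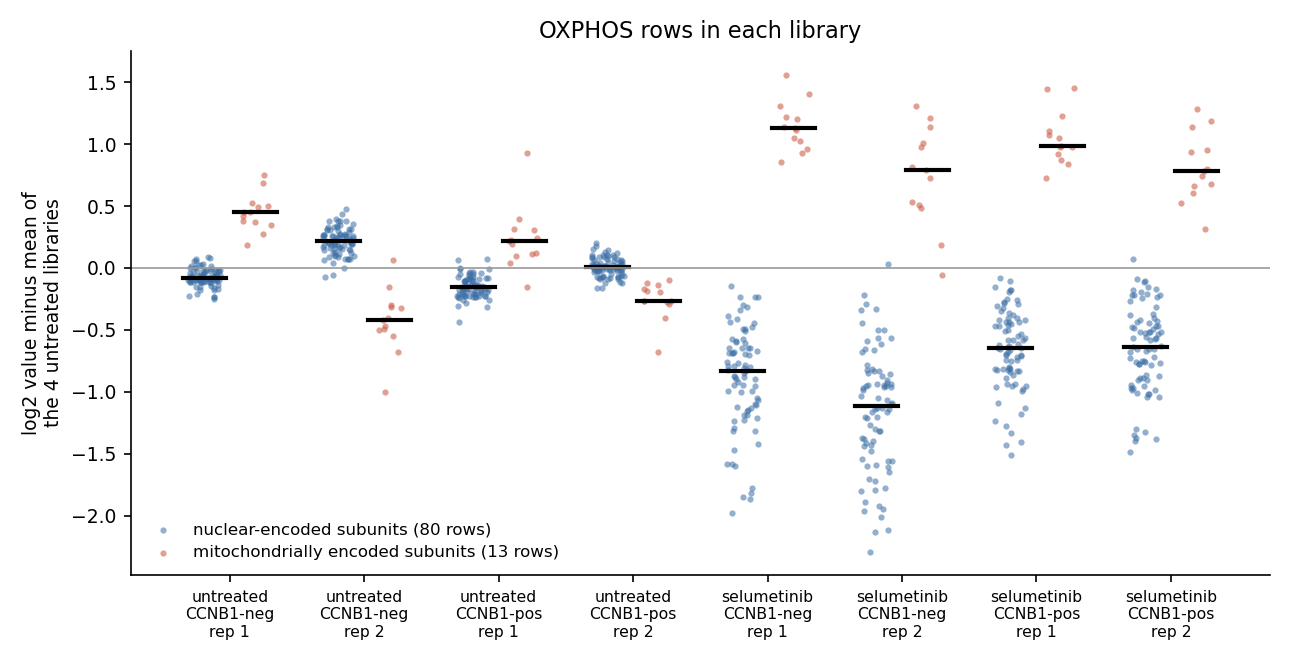
Difference of each OXPHOS subunit row from its own mean over the 4 untreated libraries (log2, vertical axis) in each of the 8 libraries (horizontal axis); points are genes, bars are medians over 80 nuclear (blue) and 13 mitochondrial (red) rows. The nuclear medians of the 4 treated libraries run from -1.11 to -0.63 and the mitochondrial medians from 0.78 to 1.13. These are values with the authors' scaling to total reads.

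Because both classes are read in the same libraries, their ratio does not depend on how libraries are scaled. Reads on mitochondrial subunits exceeded reads on nuclear subunits 6.31- and 2.98-fold in untreated CCNB1-negative libraries and 5.62- and 3.76-fold in untreated CCNB1-positive ones. The ratio was 20.1 and 19.6 in the treated CCNB1-negative and 15.9 and 13.7 in the treated CCNB1-positive libraries. The treated and untreated libraries did not overlap, and the mean log2 ratio rose by 2.19 (4.57-fold) in CCNB1-negative and by 1.68 (3.20-fold) in CCNB1-positive cells. Within single complexes the log2 ratio rose by 1.90 and 1.46 for complex I, 2.21 and 1.73 for complex III, 2.29 and 1.69 for complex IV, and 2.25 and 1.66 for complex V, in the negative and positive fraction respectively. As a share of all reads on genes, the mitochondrial genes took 7.80% and 4.44% of the untreated CCNB1-negative, 6.57% and 4.91% of the untreated CCNB1-positive, 14.8% and 12.3% of the treated CCNB1-negative and 13.4% and 11.9% of the treated CCNB1-positive libraries. The nuclear subunits together took between 1.17% and 1.49% in untreated and between 0.630% and 0.871% in treated libraries.

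Per transcript length, most mitochondrial genes had far more reads in these poly(A)-selected libraries than the nuclear ones before treatment as well. In untreated CCNB1-negative cells the nuclear subunit rows ranged from 5.31 RPKM (RPM per kilobase of transcript) for NDUFV3 to 999 for NDUFB9 with a median of 141, and the mitochondrial rows from 155 for MT-ND6 to 13763 for MT-CO2 with a median of 5193. In treated CCNB1-negative cells the nuclear median was 75.9 and the mitochondrial median 11617 RPKM. NDUFV3 and NDUFB9, and MT-ND6 and MT-CO2, remained the lowest and highest of their classes in all 4 groups.

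**Figure D2:**
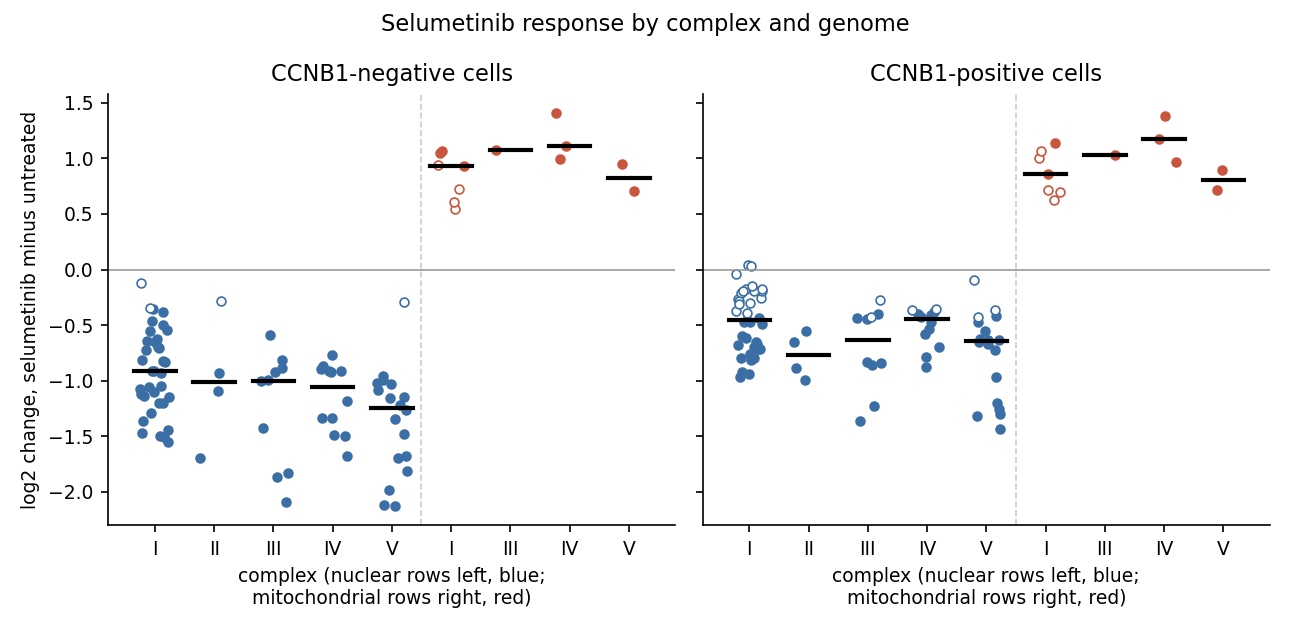
Log2 change under selumetinib (vertical axis) of each OXPHOS subunit row in CCNB1-negative (left) and CCNB1-positive cells (right), by complex (horizontal axis); filled points had an adjusted p under 0.05 (limma), open points did not, and bars are medians. Medians of the nuclear complexes run from -1.24 to -0.91 in CCNB1-negative cells and those of the mitochondrial ones from 0.83 to 1.11. Under quantile normalization MT-CO2, MT-CO3, MT-ATP6 and MT-ND4 turned to small negative values in both fractions, and MT-CYB, COX4I1 and COX6B1 changed sign in CCNB1-positive cells.

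Complex I, which oxidises NADH, has 7 nuclear core subunits that carry its flavin and iron-sulfur clusters, and 29 of the rows tested are accessory subunits. In CCNB1-negative cells 34 of the 36 nuclear rows were lower, with a median of -0.91, and in CCNB1-positive cells 19 of 36, with a median of -0.45. Of all genes tested, 35.8% and 27.3% were lower, and these shares also stand beside the counts for complexes III, IV and V. The core rows had medians of -0.72 and -0.70 in the negative and positive fraction and the accessory rows -0.93 and -0.44. Among core subunits the largest fall was that of NDUFV2, which holds an iron-sulfur cluster beside the NADH site, at -1.37 ± 0.19 (standard error, SE; adjusted p = 1.6e-05, limma) and -0.72 ± 0.19 (adjusted p = 0.0042). NDUFV1, its partner that binds NADH and flavin, fell by 0.38 ± 0.14 in CCNB1-negative cells (adjusted p = 0.022) and stood at -0.21 ± 0.14 in CCNB1-positive cells (adjusted p = 0.19). NDUFS1, the largest iron-sulfur subunit, fell by 0.72 in both fractions (adjusted p = 0.00071 and 0.0011).

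Among the accessory subunits of complex I, NDUFA12 fell the most, by 1.55 ± 0.20 in CCNB1-negative (adjusted p = 1.1e-05) and by 0.97 ± 0.20 in CCNB1-positive cells (adjusted p = 0.00095). Its log2 values were 10.81 and 11.20 in untreated CCNB1-negative, 10.69 and 11.09 in untreated CCNB1-positive, 9.73 and 9.17 in treated CCNB1-negative and 9.85 and 9.99 in treated CCNB1-positive libraries. All treated values were below all untreated ones. NDUFS4, an accessory subunit near the NADH-oxidising tip, moved least of the nuclear subunits in CCNB1-negative cells, at -0.12 ± 0.18 (adjusted p = 0.56), and stood at -0.17 ± 0.18 in CCNB1-positive cells (adjusted p = 0.41). Its values of 10.22 and 10.67, 10.30 and 10.52, 10.19 and 10.46, and 10.14 and 10.33 in the same order of groups overlapped. NDUFB1 and NDUFA3 were the only nuclear subunits tested that did not stand below 0 in CCNB1-positive cells, at 0.04 and 0.03. Neither was called higher there, and in CCNB1-negative cells they stood at -0.56 and -0.35.

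NDUFA6, another accessory subunit, has a divergent noncoding transcript, NDUFA6-DT, and the annotated rows of the pair overlap by 25 bases on opposite strands. NDUFA6 had log2 values of 10.87 and 11.08 in untreated CCNB1-negative, 10.74 and 10.86 in untreated CCNB1-positive, 9.70 and 9.25 in treated CCNB1-negative and 10.14 and 10.11 in treated CCNB1-positive libraries, and changed by -1.499 ± 0.17 in the negative fraction (adjusted p = 2.2e-06) and by -0.68 ± 0.17 in the positive fraction (adjusted p = 0.0028). NDUFA6-DT was covered by few reads: 16 and 6, 13 and 16, 53 and 74, and 45 and 31 in the same order. Its log2 change was 3.16 ± 0.47 in the negative and 1.72 ± 0.47 in the positive fraction, opposite in sign to that of NDUFA6. It stood at 0.314 to 0.729 RPM in untreated and at 2.20 to 5.83 RPM in treated libraries. It therefore reached the 1 RPM filter only through the treated libraries, and its adjusted p-values are not used as support. The row of NDUFA6-DT also overlaps CYP2D6 by 4383 bases on the opposite strand, and strand handling in the table is not stated, so its reads cannot be assigned to it with certainty.

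Complex II, succinate dehydrogenase, which also belongs to the TCA cycle, has a catalytic pair, SDHA and SDHB, and a membrane anchor made of SDHC and SDHD. SDHA, which binds flavin and succinate, had log2 values of 12.99 and 12.91 in untreated CCNB1-negative, 13.05 and 13.001 in untreated CCNB1-positive, 11.41 and 11.10 in treated CCNB1-negative and 12.12 and 11.94 in treated CCNB1-positive libraries. It fell by 1.70 ± 0.15 (adjusted p = 3.4e-07) and by 0.99 ± 0.15 (adjusted p = 8.1e-05). SDHB, the iron-sulfur subunit, fell by 1.09 and 0.88, and SDHD by 0.93 and 0.65. SDHC was the only nuclear row lower in CCNB1-positive cells (-0.55 ± 0.16, adjusted p = 0.0073) and not called in CCNB1-negative cells (-0.28 ± 0.16, adjusted p = 0.12), and its responses did not differ by the interaction (-0.27 ± 0.22, adjusted p = 0.53).

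In complex III, all 10 nuclear rows were lower in CCNB1-negative cells, with a median of -0.999, and 8 of 10 in CCNB1-positive cells, with a median of -0.64. CYC1, cytochrome c1, had log2 values of 12.29 and 12.49 in untreated CCNB1-negative, 12.33 and 12.50 in untreated CCNB1-positive, 10.55 and 10.48 in treated CCNB1-negative and 11.07 and 11.03 in treated CCNB1-positive libraries. All treated values were below all untreated ones, and the change was -1.87 ± 0.14 (3.66-fold, adjusted p = 7.6e-08) and -1.36 ± 0.14 (2.57-fold, adjusted p = 3.3e-06). UQCRFS1, the Rieske iron-sulfur protein, fell by 1.83 ± 0.20 (adjusted p = 1.9e-06) and by 1.22 ± 0.20 (adjusted p = 0.00013). The core proteins UQCRC1 and UQCRC2, which hold no redox group, fell by 0.82 and 1.00 in CCNB1-negative and by 0.45 and 0.84 in CCNB1-positive cells. UQCRHL, a copy of UQCRH without introns, stood at -2.09 ± 0.28 and -0.86 ± 0.28 beside -1.42 ± 0.15 and -0.83 ± 0.15 for UQCRH, but reads can be shared between these near-identical sequences, so the value for UQCRHL is uncertain.

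In complex IV, cytochrome c oxidase, all 12 nuclear rows tested were lower in CCNB1-negative cells, from COX7A2L, a factor that joins complexes III and IV, at -0.77 ± 0.17 to NDUFA4 at -1.68 ± 0.19. In CCNB1-positive cells 10 of 12 were lower, with a median of -0.45. COX4I1, a nuclear subunit that joins early in assembly, fell by 0.89 ± 0.15 in the negative (adjusted p = 0.00011) and 0.38 ± 0.15 in the positive fraction (adjusted p = 0.041), and the latter turned to 0.08 under quantile normalization, as COX6B1 did from -0.40 to 0.05. COX5A, which binds beside COX4I1, fell by 1.33 and 0.79, and COX5B, a zinc-binding subunit, fell by 0.91 in the negative fraction and stood at -0.36 in the positive (adjusted p = 0.052). The alternative isoforms were nearly silent. COX8C, COX6A2 and COX7A1 had no read in any library, COX4I2 had 1 read in 1 library, and COX7B2 had at most 11.

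COX6B2 and NDUFA4L2, isoforms of COX6B1 and NDUFA4, also stayed under the filter and were not tested. COX6B2 stood at 0.319 and 0.209 RPM in untreated CCNB1-negative, 0.418 and 0.408 in untreated CCNB1-positive, 0.715 and 1.18 in treated CCNB1-negative and 2.20 and 2.62 in treated CCNB1-positive libraries. NDUFA4L2 stood at 1.87 and 3.82, 1.92 and 5.63, 0.429 and 0.0788, and 0.3004 and 0.354 RPM in the same order. Treated and untreated libraries did not overlap for either gene, COX6B2 being higher and NDUFA4L2 lower in treated cells, on at most 44 reads of COX6B2 and 124 of NDUFA4L2 in any library. The eighth untested row, ATP5MGL, a retained copy of a complex V gene, had between 1 and 6 reads.

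In complex V, the ATP synthase, 17 of 18 nuclear rows tested were lower in the negative and 15 of 18 in the positive fraction, with medians of -1.24 and -0.64. In the catalytic F1 head, ATP5F1B (β) changed by -1.98 ± 0.20 (3.95-fold, adjusted p = 9.7e-07) and -1.44 ± 0.20 (2.71-fold, adjusted p = 3.5e-05), and ATP5F1A (α) by -1.70 ± 0.18 and -1.20 ± 0.18 (adjusted p = 1.3e-06 and 5.8e-05). The single-copy stalk subunits of the head fell less, ATP5F1C (γ) by 1.02 and 0.63 and ATP5F1D (δ) by 0.95 and 0.65. ATP5F1E (ε) fell by 1.03 in the negative fraction and stood at -0.43 in the positive (adjusted p = 0.065). ATP5PB, the peripheral stalk subunit b, fell by 1.81 ± 0.18 and 1.25 ± 0.18 (adjusted p = 8.7e-07 and 4.8e-05). ATP5IF1, which is not a structural subunit but an inhibitor of ATP hydrolysis, fell by 1.22 ± 0.17 and 0.42 ± 0.17 (adjusted p = 1.5e-05 and 0.041).

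Subunit c, which forms the rotating ring in the membrane, is made from 3 genes that encode the same mature protein, and these genes differed in response. ATP5MC1 had log2 values of 11.35 and 11.50 in untreated CCNB1-negative, 11.15 and 11.17 in untreated CCNB1-positive, 9.43 and 9.17 in treated CCNB1-negative and 9.79 and 9.89 in treated CCNB1-positive libraries. ATP5MC3 had 12.27 and 12.62, 12.12 and 12.41, 10.58 and 10.07, and 10.96 and 10.97 in the same order. ATP5MC2 had 12.15 and 12.15, 12.04 and 11.96, 11.93 and 11.78, and 11.97 and 11.86. All treated libraries lay well below the untreated ones for ATP5MC1 and ATP5MC3, whereas for ATP5MC2 the treated CCNB1-positive libraries overlapped the untreated ones. ATP5MC1 fell by 2.13 ± 0.15 (4.36-fold, adjusted p = 3.3e-08) and 1.32 ± 0.15 (2.50-fold, adjusted p = 5.4e-06), and ATP5MC3 by 2.12 ± 0.19 (adjusted p = 2.4e-07) and 1.30 ± 0.19 (adjusted p = 4.1e-05). ATP5MC2 stood at -0.29 ± 0.14 (adjusted p = 0.073) and -0.09 ± 0.14 (adjusted p = 0.58). Of the reads on the 3 genes together, ATP5MC2 therefore took 35.4% ± 3.1 (SD, n = 2) and 36.2% ± 3.2 in untreated CCNB1-negative and CCNB1-positive cells, and 66.0% ± 3.0 and 56.9% ± 1.9 in treated ones, a share that does not depend on library scaling. No test was run on these shares.

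**Figure D3:**
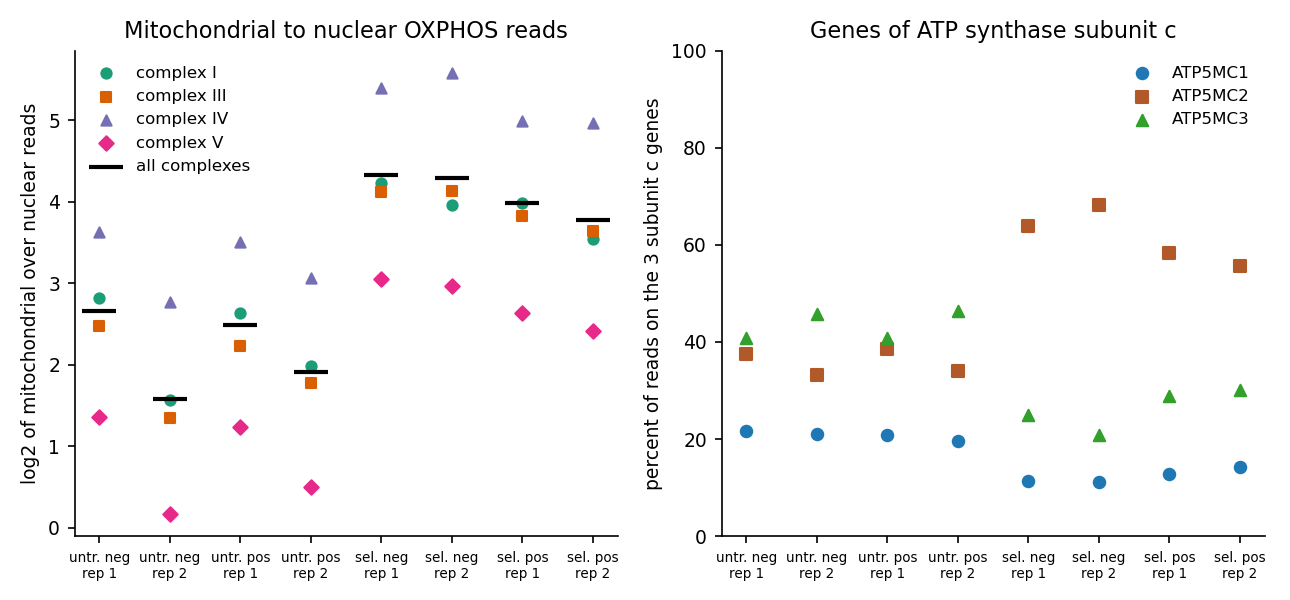
Left, log2 ratio of mitochondrial to nuclear reads (vertical axis) for complexes I, III, IV and V and for all together (bars) in each library (horizontal axis); the overall log2 ratio is 1.58 to 2.66 in untreated and 3.77 to 4.33 in treated libraries. Right, percent of the reads on the 3 genes of ATP synthase subunit c taken by each gene in each library; ATP5MC2 holds 33.2% to 38.5% in untreated and 55.6% to 68.1% in treated libraries.

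The RefSeq sequences upstream of a few subunits, chosen after their values were seen, are shown as a description. Whether these sequences bear on the responses was not tested. Each window runs from 250 bases before to 50 bases after an annotated start site, on the strand of the gene, in build GRCh38.p14, and capitals mark 4 short letter strings searched on both strands: GCGCATG of nuclear respiratory factor 1 (NRF1), CCGGAAG of ETS factors such as GABPA, AGATGGC of YY1, and the E-box CACGTG, which MYC among others binds. Windows were found for 70 of 88 nuclear subunit genes, and not for ATP5MC3, ATP5F1B or CYC1. ATP5MC1 (chr17:48892537-48892836, plus strand) holds an E-box just past its start site. ATP5MC2 (chr12:53676034-53676333 and chr12:53676281-53676580, minus strand) holds the NRF1 string ahead of 2 of its 3 annotated start sites.
ATP5MC1: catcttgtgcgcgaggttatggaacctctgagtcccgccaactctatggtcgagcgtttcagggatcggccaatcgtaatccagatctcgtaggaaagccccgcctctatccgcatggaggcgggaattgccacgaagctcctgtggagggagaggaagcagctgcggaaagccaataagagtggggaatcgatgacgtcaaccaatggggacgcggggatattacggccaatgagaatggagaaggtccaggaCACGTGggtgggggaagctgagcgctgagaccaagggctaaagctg
ATP5MC2 start 1: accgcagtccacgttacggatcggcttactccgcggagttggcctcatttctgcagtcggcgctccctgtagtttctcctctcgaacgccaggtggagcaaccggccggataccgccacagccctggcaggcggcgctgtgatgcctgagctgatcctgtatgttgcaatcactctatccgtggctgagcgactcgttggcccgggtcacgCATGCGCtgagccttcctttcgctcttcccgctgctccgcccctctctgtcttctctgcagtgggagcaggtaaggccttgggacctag
ATP5MC2 start 2: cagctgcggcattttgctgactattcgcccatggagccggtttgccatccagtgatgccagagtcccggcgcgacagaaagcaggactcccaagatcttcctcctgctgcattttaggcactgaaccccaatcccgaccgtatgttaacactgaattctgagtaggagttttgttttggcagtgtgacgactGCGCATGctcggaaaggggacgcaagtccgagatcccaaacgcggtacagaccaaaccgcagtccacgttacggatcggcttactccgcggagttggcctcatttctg
COX8A (chr11:63974370-63974669, plus strand), one of the rows whose responses differed between the fractions, holds an ETS string. ATP5PF (chr21:25735005-25735304, minus strand), peripheral stalk subunit F6, holds the NRF1, YY1 and ETS strings in turn. NDUFA6 (chr22:42090723-42091022, minus strand) holds the NRF1 string upstream and the YY1 string just past its start.
COX8A: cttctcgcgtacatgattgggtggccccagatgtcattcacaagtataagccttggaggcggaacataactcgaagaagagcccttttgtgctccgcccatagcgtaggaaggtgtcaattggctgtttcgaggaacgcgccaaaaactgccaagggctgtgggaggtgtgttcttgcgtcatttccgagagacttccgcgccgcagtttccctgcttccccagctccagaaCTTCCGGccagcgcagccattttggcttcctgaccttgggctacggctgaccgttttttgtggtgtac
ATP5PF: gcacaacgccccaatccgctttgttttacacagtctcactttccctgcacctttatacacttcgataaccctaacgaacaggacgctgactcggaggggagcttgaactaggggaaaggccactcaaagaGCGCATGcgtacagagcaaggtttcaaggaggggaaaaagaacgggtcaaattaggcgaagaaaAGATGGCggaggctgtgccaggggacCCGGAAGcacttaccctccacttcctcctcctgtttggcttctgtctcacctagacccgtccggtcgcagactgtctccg
NDUFA6: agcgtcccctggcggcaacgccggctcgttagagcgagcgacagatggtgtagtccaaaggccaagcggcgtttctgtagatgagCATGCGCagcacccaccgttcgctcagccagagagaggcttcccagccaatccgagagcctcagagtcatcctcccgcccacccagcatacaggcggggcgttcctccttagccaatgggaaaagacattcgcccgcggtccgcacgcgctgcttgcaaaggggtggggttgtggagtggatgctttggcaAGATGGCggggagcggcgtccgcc
A string in these windows is a match of letters and not a measured binding site.

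Over all 84 windows of the 70 matched genes, the NRF1 string was present in 20.2% of windows, beside 4.43% of all 35116 RefSeq windows and 5.26% of those of protein-coding genes. The ETS string was in 26.2%, beside 10.3% of all windows and 12.8% of coding ones, and the YY1 string in 16.7%, beside 5.41% and 5.79%. The E-box was in 8.33%, beside 7.26% and 8.34%. In CCNB1-negative cells the medians were -1.05 with (15 genes) and -1.01 without (50 genes) the NRF1 string, -1.09 (21 genes) and -1.03 (44 genes) for ETS, -1.09 (13 genes) and -1.01 (52 genes) for YY1, and -1.06 (7 genes) and -1.03 (58 genes) for the E-box. In CCNB1-positive cells the same genes had medians of -0.63 with and -0.46 without the NRF1 string, -0.53 and -0.47 for ETS, -0.67 and -0.47 for YY1, and -0.39 and -0.48 for the E-box. None of these differences was tested.

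All 13 mitochondrial genes stood above 0 in both fractions under the authors' scaling, whereas under quantile normalization MT-CO2, MT-CO3, MT-ATP6 and MT-ND4 stood below 0 in both and MT-CYB in CCNB1-positive cells. MT-CO1, the catalytic subunit of complex IV, rose the most. Its log2 values were 17.86 and 17.17 in untreated CCNB1-negative, 17.71 and 17.23 in untreated CCNB1-positive, 19.05 and 18.80 in treated CCNB1-negative and 18.93 and 18.77 in treated CCNB1-positive libraries. All treated values exceeded all untreated values, and the change was 1.41 ± 0.40 (2.65-fold, adjusted p = 0.0057) and 1.39 ± 0.40 (2.61-fold, adjusted p = 0.0077). MT-CO2, which accepts electrons from cytochrome c, rose by 1.11 ± 0.38 and 1.17 ± 0.38 (adjusted p = 0.017 and 0.015), and MT-CO3 by 0.99 ± 0.37 and 0.97 ± 0.37 (adjusted p = 0.027 and 0.034). MT-CYB, cytochrome b of complex III, had 17.47 and 16.64, 17.17 and 16.90, 18.25 and 18.02, and 18.15 and 17.98 in the same order of groups, and rose by 1.08 ± 0.36 (adjusted p = 0.015) and 1.03 ± 0.36 (adjusted p = 0.022). In complex V, MT-ATP6, which forms the proton channel beside the ring, rose by 0.95 and 0.89 (adjusted p = 0.034 and 0.049) and MT-ATP8 by 0.71 and 0.72 (adjusted p = 0.028 and 0.029). The rows of MT-ATP8 and MT-ATP6 overlap by 46 bases and lie on 1 transcript, so reads can be split between them.

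Of the 7 mitochondrial subunits of complex I, which form its proton-pumping arm, 3 were higher in the negative and 2 in the positive fraction. Of all genes tested, 38.2% and 38.0% were higher, so these counts lie near the general share. Standard errors ran from 0.21 for MT-ND3 to 0.52 for MT-ND6. MT-ND3 had log2 values of 14.96 and 14.84 in untreated CCNB1-negative, 14.62 and 14.68 in untreated CCNB1-positive, 15.91 and 15.99 in treated CCNB1-negative and 15.61 and 15.96 in treated CCNB1-positive libraries. It was the most evenly replicated mitochondrial gene, with changes of 1.05 ± 0.21 (adjusted p = 0.00053) and 1.14 ± 0.21 (adjusted p = 0.0004). MT-ND1 rose by 0.94 ± 0.34 and 0.86 ± 0.34 (adjusted p = 0.023 and 0.038), and MT-ND4 by 1.06 ± 0.46 in the negative fraction only just within the threshold (adjusted p = 0.0496) with 1.00 ± 0.46 in the positive (adjusted p = 0.069). MT-ND5 stood at 0.94 and 1.07 (adjusted p = 0.075 and 0.052) and MT-ND2 at 0.72 and 0.71 (adjusted p = 0.064 and 0.075). MT-ND4L stood at 0.54 and 0.62 (adjusted p = 0.16 and 0.12).

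MT-ND6, the only protein gene on the light strand of mitochondrial DNA, also had the fewest reads of the mitochondrial rows in these poly(A)-selected libraries. Its log2 values of 11.55 and 9.80 in untreated CCNB1-negative, 11.73 and 10.13 in untreated CCNB1-positive, 11.83 and 10.74 in treated CCNB1-negative and 11.85 and 11.40 in treated CCNB1-positive libraries were higher in replicate 1 of each pair and overlapped between treatments. Its changes of 0.61 ± 0.52 and 0.70 ± 0.52 did not pass the test (adjusted p = 0.30 and 0.25).

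The mitochondrial calls rested on few libraries. Without untreated CCNB1-negative replicate 2 the 9 calls in the negative fraction became 1, where 65.1% of all genes were called in either direction, and without selumetinib CCNB1-negative replicate 1 they became 3, where 72.5% were. In the positive fraction the 8 calls became 5 without untreated replicate 1, 1 without untreated replicate 2, 2 without treated replicate 1 and 3 without treated replicate 2, where 51.3% to 59.1% of all genes were called. With a replicate block all 13 were higher in both fractions, where 76.6% and 68.7% of all genes were called. The 58 lower and 1 higher nuclear calls in the positive fraction (65.3% of all genes were called in either direction) became 32 in all without untreated CCNB1-positive replicate 2. Medians kept their direction throughout, from 0.51 to 1.38 for the mitochondrial rows in the negative and 0.67 to 1.15 in the positive fraction.

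**Figure D4:**
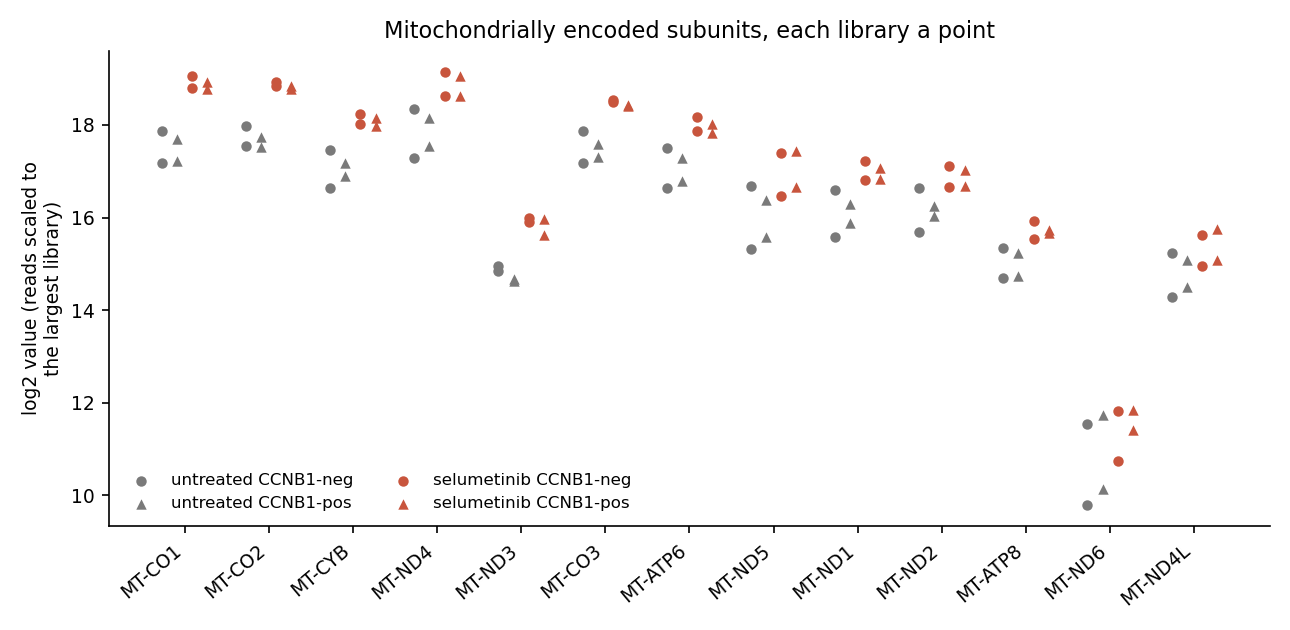
Log2 value (reads scaled to the largest library, vertical axis) of the 13 mitochondrially encoded subunits (horizontal axis, ordered by their change in CCNB1-negative cells) in untreated (grey) and selumetinib-treated libraries (red); circles are CCNB1-negative and triangles CCNB1-positive libraries. MT-CO1 lies at 17.17 to 17.86 in untreated and 18.77 to 19.05 in treated libraries, and MT-ND6 overlaps. The changes of MT-CO2, MT-CO3, MT-ATP6 and MT-ND4, and that of MT-CYB in CCNB1-positive cells, turned negative under quantile normalization.

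The mitochondrial genes did not rise in equal proportion. Among reads on the 13 genes, MT-CO1 took 12.8% to 13.8% in untreated and 16.6% to 17.2% in treated libraries, without overlap, and it was the only gene whose share was higher in all treated libraries. Shares of MT-ND2 (4.96% to 5.69% untreated, 3.92% to 4.46% treated), MT-ATP6 (9.49% to 10.2%, 8.81% to 9.03%), MT-ATP8 (2.25% to 2.50%, 1.79% to 1.96%) and MT-ND4L (1.86% to 2.21%, 1.20% to 1.83%) were lower in all treated libraries. The shares of the other 8 genes overlapped, MT-CYB among them at 9.37% to 10.3% and 9.58% to 10.01%. No test was run on these shares.

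Without selumetinib the fractions hardly differed. No OXPHOS row passed the test between untreated CCNB1-positive and CCNB1-negative cells, where 2.87% of all genes did (1.36% higher and 1.51% lower), and the medians were -0.15 for the nuclear and -0.02 for the mitochondrial rows. Under selumetinib 15 of 83 nuclear rows were higher in CCNB1-positive than in CCNB1-negative cells, where 13.8% of all genes were, none was lower, where 7.87% were (21.6% in either direction), and the median was 0.38 against 0.02 for all genes. COX8A (0.91 ± 0.16, adjusted p = 0.0017), SDHA (0.78 ± 0.15, adjusted p = 0.0031), ATP5IF1 (0.70 ± 0.17, adjusted p = 0.0097) and NDUFA2 (0.62 ± 0.15, adjusted p = 0.0094) were among them. No mitochondrial row was called, and their median was -0.07.

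The nuclear response was smaller in CCNB1-positive cells for most rows, as it was for most genes. The change was the larger one in CCNB1-negative cells for 81 of 83 nuclear rows and for 10322 of all 14219 genes tested. The interaction, which is the response in positive minus that in negative cells, was above 0 in 80 of 83 nuclear rows and in 8413 of all genes. Its median was 0.52 for the nuclear rows against 0.11 for all genes. Only 3 rows passed the test, where 4.99% of all genes did in this direction and 5.33% in either. COX8A, a small subunit of complex IV, had log2 values of 12.34 and 12.43 in untreated CCNB1-negative, 12.31 and 12.34 in untreated CCNB1-positive, 11.12 and 10.65 in treated CCNB1-negative and 11.72 and 11.86 in treated CCNB1-positive libraries. The treated fractions did not overlap, and it changed by -1.498 ± 0.16 against -0.53 ± 0.16 (interaction 0.97 ± 0.23, adjusted p = 0.026). NDUFA2, an accessory subunit of complex I, had 11.02 and 11.13, 10.79 and 10.82, 10.29 and 9.99, and 10.76 and 10.77 in the same order, and changed by -0.93 ± 0.15 (adjusted p = 5.5e-05) against -0.04 ± 0.15 (adjusted p = 0.81; interaction 0.89 ± 0.21, adjusted p = 0.021). The other was ATP5MC1 (interaction 0.80 ± 0.21, adjusted p = 0.04).

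The number of interaction calls depended on single libraries and on the replicate block. Leaving out untreated CCNB1-negative replicate 2, either untreated CCNB1-positive library, selumetinib CCNB1-negative replicate 2 or either treated CCNB1-positive library left 0 nuclear calls, where 3.44% to 4.14% of all genes were called in either direction. Leaving out untreated CCNB1-negative replicate 1 gave 9, where 5.26% of all genes were called, and leaving out selumetinib CCNB1-negative replicate 1 gave 24, where 12.7% were. The 15 calls between the treated fractions became 40 without selumetinib CCNB1-negative replicate 1, where 30.1% of all genes were called, and 2 or 3 without any other treated library, where 8.13% to 11.4% were. With the replicate number as a block within each treatment, 63 nuclear rows passed the interaction test, all higher, where 27.1% of all genes did in either direction, and 65 were higher and 1 lower between the treated fractions, where 46.9% of all genes were called. For the mitochondrial rows the median interaction was -0.01, 6 of 13 were positive and none passed the test. Across the 80 nuclear subunit rows the 2 responses ran together, with Pearson's r of 0.85 and Spearman's rho of 0.83 as a description over genes. The responses share no library. Same-numbered libraries of the fractions deviated together across all genes tested, with correlations of 0.35 (untreated) and 0.43 (selumetinib), so the responses need not be independent.

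**Figure D5:**
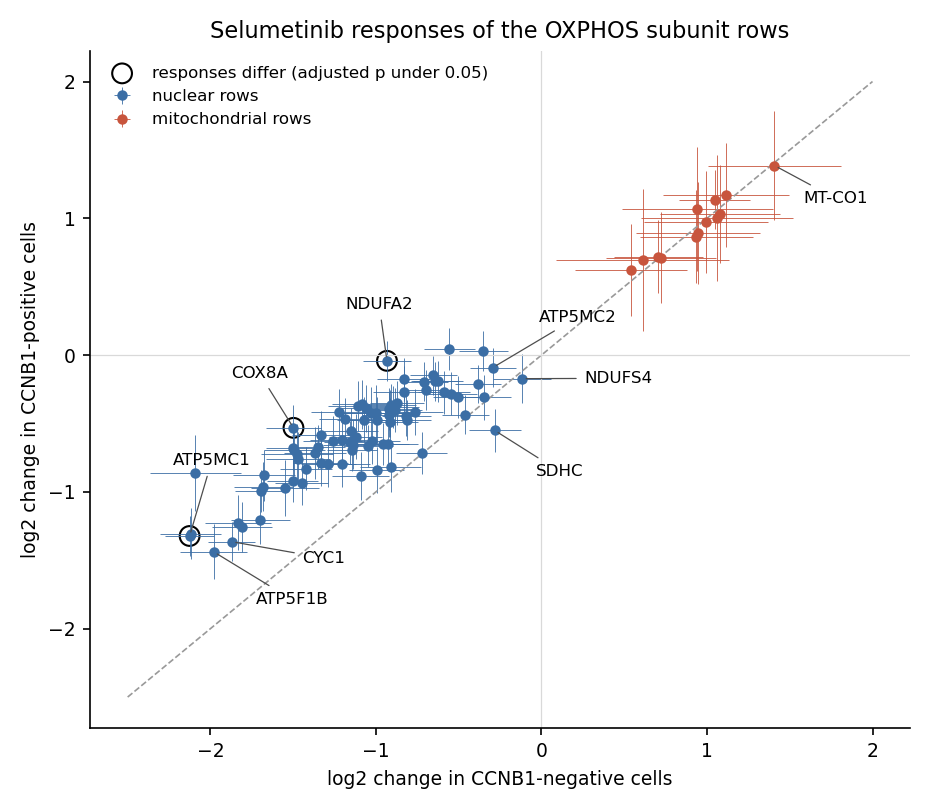
Log2 change under selumetinib in CCNB1-positive cells (vertical axis) against that in CCNB1-negative cells (horizontal axis) for 80 nuclear (blue) and 13 mitochondrial (red) subunit rows, with standard errors from limma as thin lines; the dashed line marks equal responses and circles mark rows whose responses differed. Nearly all nuclear rows lie above the dashed line, such as ATP5MC1 at -2.13 (negative) and -1.32 (positive), whereas NDUFS4 at -0.12 and -0.17 lies just below it. The mitochondrial rows lie along the line up to MT-CO1 at 1.41 and 1.39.

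Genes that serve the OXPHOS complexes were also read, from lists drawn up with earlier results of these data known, and each count below stands beside 35.8% of all genes lower and 38.2% higher in the negative and 27.3% lower and 38.0% higher in the positive fraction. Of 48 assembly factors, 31 were lower and 3 higher in the negative and 27 and 4 in the positive fraction, with medians of -0.74 and -0.43. The lowest were TMEM70, an assembly factor of complex V, at -2.62 ± 0.24 (adjusted p = 4.2e-07) in the negative fraction, and NDUFAF4, of complex I, at -2.24 in the positive (adjusted p = 2.3e-06). NUBPL, which delivers iron-sulfur clusters to complex I, rose by 1.29 ± 0.20 (adjusted p = 4.3e-05) and 0.56 (adjusted p = 0.022). Of 17 electron carriers and genes of coenzyme Q synthesis, 9 were lower and 5 higher in the negative and 8 and 3 in the positive fraction, with medians of -0.61 and -0.38. CYCS, cytochrome c, fell from log2 values of 12.31 and 12.71 in untreated to 9.48 and 9.25 in treated CCNB1-negative cells, and from 12.34 and 12.65 to 10.31 and 10.70 in CCNB1-positive cells. No subunit row fell as far in either fraction, and the change was -3.14 ± 0.18 (adjusted p = 8.1e-09) and -1.99 (adjusted p = 1.3e-06). PDSS2, of the enzyme that makes the coenzyme Q tail, rose by 1.99 ± 0.16 (adjusted p = 1.5e-07) and 1.19 (adjusted p = 3.1e-05).

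Of 18 genes of the TCA cycle and the enzyme complexes that feed it, 13 were lower and 1 higher in each fraction, where 35.8% and 27.3% of all genes were lower and 38.2% and 38.0% higher, with medians of -1.18 and -0.81. FH, fumarase, fell by 2.17 ± 0.17 and 1.34 (adjusted p = 1.0e-07 and 1.6e-05), and OGDH, part of the 2-oxoglutarate dehydrogenase complex, rose by 0.78 ± 0.14 and 0.44 (adjusted p = 0.00023 and 0.016). Nuclear genes that copy, transcribe and process mitochondrial DNA and RNA were mostly lower: of 32, 23 were lower and 4 higher in the negative and 24 and 2 in the positive fraction, with medians of -1.09 and -0.87. TFAM, which packages mitochondrial DNA and starts its transcription, had log2 values of 10.69 and 11.11 in untreated and 8.62 and 8.48 in treated CCNB1-negative cells and of 10.82 and 10.99 and then 9.16 and 9.55 in CCNB1-positive cells, a change of -2.35 ± 0.18 (adjusted p = 8.1e-08) and -1.55 (adjusted p = 7.9e-06). POLRMT, the mitochondrial RNA polymerase, fell by 0.64 and 0.53 (adjusted p = 0.0018 and 0.0078), and LRPPRC, which stabilises mitochondrial mRNAs, by 1.39 and 1.16 (adjusted p = 1.2e-06 and 1.3e-05). MTERF2, a mitochondrial transcription factor, rose by 1.16 and 1.34 (adjusted p = 3.4e-05 and 1.8e-05).

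Of 12 transcriptional regulators of OXPHOS genes tested, 6 were lower and 3 higher in each fraction, with medians of -0.34 and -0.32, where 35.8% and 27.3% of all genes were lower and 38.2% and 38.0% higher. MYC changed by -2.27 ± 0.16 and -1.85 (adjusted p = 4.2e-08 and 8.6e-07), the PGC-1-related coactivator PPRC1 by -1.77 and -1.54 (adjusted p = 4.1e-07 and 3.8e-06), and ESRRA by -0.65 and -0.98 (adjusted p = 0.00080 and 4.1e-05). NRF1 rose by 0.92 and 0.87 (adjusted p = 9.0e-05 and 0.00022), whereas GABPA stood at -0.04 and 0.09 (adjusted p = 0.85 and 0.65). GABPB2 had the most positive change of these 12 regulators in both fractions.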

How the data were processed

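Poly(A)-selected, strand-marking libraries from 8 sorted HT29 samples were sequenced. Per the submitters' notes and the study's methods, reads were trimmed with Trim Galore 0.5.0, aligned to GRCh38 with HISAT2 2.1.0 and counted over genes in SeqMonk, and the authors deposited log2 read counts scaled to the largest library. The strand handling of the table and its annotation release are not given in the sources used here. Whole reads were recovered from the deposited log2 values, since 100% of values below 100 reads lay within 0.01 of a whole number in every library. Of the gene identifiers, 99.3% were found in GENCODE 44.

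Genes whose mean reached 1 RPM (a mean log2 value of 4.58) were tested with limma 3.58.1 in R 4.3.3 and a mean-variance trend on the deposited log2 values, with 1 fit over 4 groups of 2 libraries, 5 comparisons and Benjamini-Hochberg adjustment over 14219 genes at a threshold of 0.05. Values with a ± and no other label are standard errors. The scripts were tested on simulated data. The OXPHOS rows and all gene lists were chosen with earlier results of these data known. The rule named the 13 mitochondrial genes, the core subunits, isoform genes, the 3 highest and 3 lowest nuclear rows in each comparison, and the extreme genes of each other list. Not every gene it named is printed, and TWNK and IDH3A, the lowest of their lists in CCNB1-positive cells, are among those left out. Any other gene given was chosen after its values were seen. Alternatives were another filter, threshold or normalization, voom on the recovered reads, a replicate block and leaving out each library. Scaling to nuclear genes without MALAT1, and leaving out the 3 rows that encode no subunit, were added after seeing the data. Of the nuclear rows, 40 overlap a row on the opposite strand. Levels in RPKM used annotated transcript lengths. Genome sequence was taken from RefSeq, GRCh38.p14.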

Additional observations from a re-analysis of the deposited data

Results flagged for a closer look

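The responses of 3 of the 83 nuclear rows differed between the fractions by the interaction test in limma. Of all genes tested, 4.99% passed it with the more positive response in CCNB1-positive cells, so the count of 3 lies near the general share. The number of such nuclear calls depended on single libraries and on the replicate block. With the replicate number as a block within each treatment it was 63, where 27.1% of all genes were called in either direction. The response of COX8A in CCNB1-positive cells exceeded that in CCNB1-negative cells by 0.97 on the log2 scale, that of NDUFA2 by 0.89 and that of ATP5MC1 by 0.80, and in each case the fall was the smaller one in CCNB1-positive cells. None of the 3 calls remained at an adjusted p under 0.01.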

How the results depend on the processing

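Of 380 values of 22 main results under alternatives, 332 moved by less than the replicate spread or 1.5 times and 48 moved by more. The sign changed in 8, all of them mitochondrial medians near 0 between fractions or for the interaction when 1 library was left out, and in no selumetinib response. Under quantile normalization, scaling to nuclear genes and the same scaling without MALAT1 (added after seeing the data), the nuclear median was -0.80, -0.80 and -0.75 in CCNB1-negative and -0.33, -0.34 and -0.30 in CCNB1-positive cells. In the latter 38, 36 and 32 of 83 nuclear rows were called in place of 59. Of all genes tested, 59.6%, 64.8% and 65.3% were called there under these settings, against 65.3% in the main fit. Scaling to nuclear genes moved the median of all genes by 0.31 and 0.38, and relative to that median the nuclear rows stood at -1.11 and -0.72 and the mitochondrial rows at 0.90 and 0.80 with or without it. Mitochondrial calls were 4 and 4 under quantile normalization, where 72.7% and 59.6% of all genes were called. They were 1 and 1 with no filter, where 36.4% and 29.4% were, and 2 and 2 at an adjusted p under 0.01. At that threshold, for which the share of all genes is not given here, 4 nuclear rows were called between the treated fractions. The interaction had 0 nuclear calls at that threshold and 1 with no filter, where 1.68% of all genes were called. Quantile normalization reversed COX4I1 (0.0799), COX6B1 (0.0494), SDHAF4 (-0.0491) and MT-CYB (-0.11) in CCNB1-positive cells, MT-ND4 in CCNB1-negative cells (-0.27), and MT-ATP6 (-0.20 in both), MT-CO2 (-0.27 and -0.0920) and MT-CO3 (-0.34 in both); by construction it gives each rank 1 value, and mitochondrial genes held 6 to 9 of the top 10 ranks in untreated and 9 in treated libraries, and 6 to 9 and 11 to 12 of the top 20. With a replicate block, 13 mitochondrial rows were called in each fraction (76.6% and 68.7% of all genes). With the block within treatment, 66 nuclear rows and 1 mitochondrial row were called between treated fractions (46.9% of all genes), 1 nuclear row between untreated fractions (13.5%) and 63 for the interaction (27.1%). Replicate deviations correlated at 0.35 and 0.43 between fractions of 1 treatment and -0.09 to 0.08 otherwise, and with 2 pairs the numbers were not taken to pair samples. Leaving out 1 library gave 73 to 80 and 32 to 63 nuclear calls (CCNB1-negative and CCNB1-positive), medians of -1.24 to -0.90 and -0.65 to -0.46, 1 to 13 and 1 to 11 mitochondrial calls, medians of 0.51 to 1.38 and 0.67 to 1.15, and log2 ratios of 1.65 to 2.73 and 1.39 to 1.97. Between untreated fractions the medians were -0.29 to -0.0022 (nuclear) and -0.43 to 0.40 (mitochondrial), between treated fractions 2 to 40 nuclear calls with medians of 0.25 to 0.51 and -0.21 to 0.14, and for the interaction 0 to 24 nuclear calls with medians of 0.38 to 0.68 and -0.46 to 0.38. The cause of these shifts was not tested. With 2 libraries a group, the depth of 12696860 to 23916160 reads is less limiting than the spread between replicates, except for rows near 1 RPM.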
